A study of Mus musculus with 10 samples.

Results

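The genes described here are 10 annotated gene models of mouse pericentromeric repeat sequence, out of 55471 genes counted in each library. Gm10800 and Gm10801 lie on chromosome 2, and Gm10722, Gm11168, Gm10721, Gm10720, Gm10719, Gm10718, Gm10717 and Gm10715 lie on chromosome 9. They were chosen by name, after the Ensembl identifiers of the count files had been matched to GENCODE M21 symbols. The rule used no read count, but the models were chosen with earlier results of these data known. All 10 had an entry in all 10 count files. The libraries came from primary mouse microglia of genotype WT, the resident immune cells of the brain, kept in DMEM with 10% FBS. A gapmer is a short antisense oligonucleotide that directs RNase H to cut a matching RNA. In 5 libraries the cells had received control gapmers, and in the other 5 gapmers directed at the RNA 3222401L13Rik, with no dose, time, strain, age or animal given in the labels. That target had 28 to 34 reads in the control libraries and 22 to 38 reads in the others (log2 fold change -0.17, adjusted p = 0.541 by edgeR's quasi-likelihood test), so the second group is called labelled knockdown throughout. Nothing in the labels says that the libraries of a group came from separate cultures or animals, so every p-value below measures only the spread between these libraries, which may be technical.

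The major satellite is the tandem repeat that fills the pericentromeres of mouse chromosomes, next to the minor satellite of the centromere itself. In the nucleus these arrays gather into chromocentres, which carry methylated DNA, methylated histone H3 and the HP1 proteins that bind it. The arrays are transcribed at low levels from both strands, and little of them is present in the genome assembly, so the few assembled copies stand for a far larger amount of like sequence. Automatic annotation placed short open reading frames on some assembled copies, and these are the gene models counted here, all typed as protein coding. No function of a protein from any of them is assumed here.

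The sequences show why the models have to be read as a family. The longest run of bases present in all 10 was 33 bases long, given in capitals in the windows printed here, and it was found in the transcripts of 12 of 55450 annotated genes (0.0216%). The others with it were Gm17535 and Gm26870, both of the same stretch of chromosome 9. Windows of 234 bases starting at that run are shown for the most abundant model and for chromosome 9 copies, 5′ to 3′ along the transcript, from the GENCODE M21 transcripts on GRCm38.
Gm10800, chr2:98666757-98666990, minus strand: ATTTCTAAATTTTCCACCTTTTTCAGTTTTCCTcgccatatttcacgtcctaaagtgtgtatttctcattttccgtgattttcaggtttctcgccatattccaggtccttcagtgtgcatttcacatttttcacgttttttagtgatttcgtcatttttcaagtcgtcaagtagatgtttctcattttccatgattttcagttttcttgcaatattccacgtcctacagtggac
Gm10722, chr9:3001186-3001419, plus strand: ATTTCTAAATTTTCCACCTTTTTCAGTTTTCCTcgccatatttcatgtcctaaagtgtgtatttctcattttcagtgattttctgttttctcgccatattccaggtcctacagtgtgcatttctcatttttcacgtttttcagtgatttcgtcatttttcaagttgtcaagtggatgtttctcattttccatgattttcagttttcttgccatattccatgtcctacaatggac
Gm10717, chr9:3025710-3025943, plus strand: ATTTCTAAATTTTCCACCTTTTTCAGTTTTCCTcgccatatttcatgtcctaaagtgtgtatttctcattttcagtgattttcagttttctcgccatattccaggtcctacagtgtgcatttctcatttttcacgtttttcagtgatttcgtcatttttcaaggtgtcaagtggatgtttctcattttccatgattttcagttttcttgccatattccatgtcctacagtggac
In these windows Gm10800 matched Gm10722 at 222 of 234 bases (94.9%) and Gm10717 at 223 (95.3%), and the chromosome 9 copies matched each other at 231 (98.7%). A window of 104 bases was available in further models, and it is shown for Gm10801, which shares chromosome 2 with Gm10800, and for Gm10721 and Gm10718, the models with the fewest reads.
Gm10801, chr2:98662365-98662468, plus strand: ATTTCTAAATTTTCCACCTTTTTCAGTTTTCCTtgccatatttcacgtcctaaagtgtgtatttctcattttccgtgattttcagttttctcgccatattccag
Gm10721, chr9:3013434-3013537, plus strand: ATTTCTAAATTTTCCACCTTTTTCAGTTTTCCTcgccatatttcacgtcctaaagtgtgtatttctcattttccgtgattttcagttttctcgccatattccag
Gm10718, chr9:3023841-3023944, plus strand: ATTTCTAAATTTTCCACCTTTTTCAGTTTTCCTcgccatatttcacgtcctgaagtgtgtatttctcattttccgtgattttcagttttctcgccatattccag
Over those 104 bases Gm10721 matched Gm10800 at 103 bases (99.0%), Gm10718 matched it at 102 (98.1%), and Gm10719 and Gm10717 were the same at all 104. In the 5 models with an exon of at least 350 bases (Gm10722, Gm11168, Gm10719, Gm10717 and Gm10715), the exon matched itself best when shifted by 234 bases, with 82.7% to 96.8% of bases equal. The transcripts of all 10 held 45.8% to 47.5% T and 34.3% to 36.0% G and C. No consensus sequence of the satellite was used here, so the repeat identity rests on the working name of the set, its shared sequence and this period.

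The 2 chromosome 2 models are 660 exonic bases (Gm10800, chr2:98666547-98667301, minus strand) and 504 exonic bases (Gm10801, chr2:98662237-98664083, plus strand) long. The 8 chromosome 9 models follow each other on the plus strand from Gm10722 (chr9:3000922-3002330, 651 exonic bases) to Gm10715 (chr9:3036877-3038316, 935 exonic bases). Gm11168 and Gm10717 are the longest of these, with 1892 and 3856 exonic bases. Of the distinct 25-base words of a model, between 44.5% (Gm10801) and 95.3% (Gm10720) also occurred in another of the 10. The sources used here do not say how reads that match several copies were counted, so the split of reads between the models is uncertain, and their sum can depend on it too.

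Library totals were 4321316 to 5639040 reads in the control group and 5593627 to 6636082 in the labelled knockdown group. All 10 microglia markers examined had reads, from Tmem119 at 2.75 reads per 1000000 (CPM) to Csf1r at 639 CPM on average. Their summed level was 3127 to 3274 CPM in control and 3284 to 3509 CPM in labelled knockdown libraries. Summed neuron markers were low and separated the groups, at 31.0 to 54.6 CPM against 13.4 to 24.7 CPM, with 4 of 5 under 10 CPM and none at 0. The groups were also apart for 4 fibroblast and mural cell markers (23.6 to 34.2 CPM against 11.0 to 19.7 CPM), 5 of the oligodendrocyte lineage (57.2 to 65.7 against 39.6 to 56.1 CPM) and 3 of endothelium (12.4 to 22.3 against 9.14 to 11.98 CPM), whereas 5 astrocyte markers overlapped at 131 to 158 CPM and 128 to 148 CPM. Olfactory receptor genes, which most cells outside the nasal epithelium keep silent, served as a measure of the reads that fall on any sequence: 1135 of them held 4567 to 12915 reads per library. Their summed density was 0.522, 0.816, 0.580, 0.653 and 0.425 reads per kilobase of exon per 1000000 reads (RPKM) in control libraries 1 to 5 and 0.313, 0.223, 0.188, 0.343 and 0.216 in the labelled knockdown libraries. The means were 0.599 ± 0.147 and 0.257 ± 0.0674 (SD, n = 5 each), a ratio of 2.33 (exact two-sided permutation test over 252 splits, p = 0.00794, the smallest it allows). Its part in the results below, and that of these marker lists, was not tested except where values relative to it are given.

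Reads on the repeat models were not spread evenly: 86.6% of all 79505 of them were counted on Gm10800. Together the 10 models took 0.184%, 0.304%, 0.200%, 0.278% and 0.148% of the reads in control libraries 1 to 5. In labelled knockdown libraries 1 to 5 they took 0.104%, 0.0685%, 0.0498%, 0.117% and 0.0513%. Every control library was above every labelled knockdown library, and the means were 0.223% ± 0.0660 and 0.0781% ± 0.0308 (SD, n = 5 each), a ratio of 2.85. In bulk RNA a lower share could come from fewer cells holding such RNA or from less of it in each cell. It could also come from fewer of the reads that fall on any sequence, and these cannot be told apart. The olfactory receptor density, the measure of such reads used here, was 2.33 times as high in the controls.

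Gm10800 had 8497, 11547, 8896, 12091 and 7226 reads in control libraries 1 to 5. In the labelled knockdown libraries it had 5096, 3834, 2924, 5828 and 2900, all below the lowest control although that group was the deeper one on average. Per length and depth this was 2925 ± 878 RPKM against 1026 ± 391 RPKM (SD, n = 5 each). Gm10801, its neighbour on the opposite strand, had 576, 750, 754, 892 and 475 reads in the controls. In the labelled knockdown libraries it had 297, 235, 126, 516 and 182, so that replicate 4 alone reached into the control range. Its level was 273 ± 80.3 RPKM against 89.0 ± 53.4 RPKM.

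On chromosome 9 the most reads were counted on Gm10717, the longest model, with 394, 461, 422, 604 and 338 in the controls. The labelled knockdown libraries had 226, 190, 133, 283 and 144, and the groups did not overlap. Gm11168 followed with 87, 120, 98, 152 and 76 reads against 55, 45, 41, 76 and 22, where the highest of the latter equalled the lowest control. Gm10722, the first model of the cluster, had 71, 96, 72, 111 and 74 reads in the controls and 64, 46, 32, 64 and 28 in the others, all below the lowest control. Gm10719 ranged from 59 to 91 reads in the controls and from 13 to 47 in the labelled knockdown libraries. Gm10715, at the other end of the cluster, ranged from 30 to 69 and from 9 to 29, and Gm10720 from 33 to 55 and from 10 to 37, with replicate 4 of the labelled knockdown group inside the control range. Those 6 models held 322 (Gm10720) to 3195 (Gm10717) reads over all libraries.

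Gm10718 and Gm10721 were close to empty. Gm10718 had 5, 2, 5, 5 and 5 reads in the controls and 1, 0, 0, 5 and 0 in the labelled knockdown libraries. Gm10721 had a single read, in control library 1, and 0 in the other 9 libraries, which allows up to 3 reads in each, or 0.452 to 0.694 CPM by library. These limits cover counting error only. Gm10721 differed from Gm10800 at 1 of the 104 bases compared, and the 2 models had 1 and 68839 reads. Those 104 bases are only a part of their 669 and 660 exonic bases. Of the 50-base windows in their transcripts, 15.7% and 72.6% were found in no other annotated gene.

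Per length the control libraries put the models in the order Gm10800, Gm10801, Gm10722 (26.0 RPKM), Gm10717 (22.9), Gm10720 (12.8), Gm10715 (11.3), Gm11168 (11.3), Gm10719 (8.32), Gm10718 (1.25) and Gm10721 (0.0563). Gm10800 stood above Gm10801, Gm10801 above Gm10722, Gm10719 above Gm10718 and Gm10718 above Gm10721 with no overlap of their control ranges. From Gm10722 down to Gm10719, each model overlapped the next in the order over the control libraries. Within single libraries some of these orders still held, since Gm10722 exceeded Gm10717 and Gm10717 exceeded Gm10720 in 5 of 5 control libraries, while Gm10720 exceeded Gm10715 in 3 of 5.

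**Figure D1:**
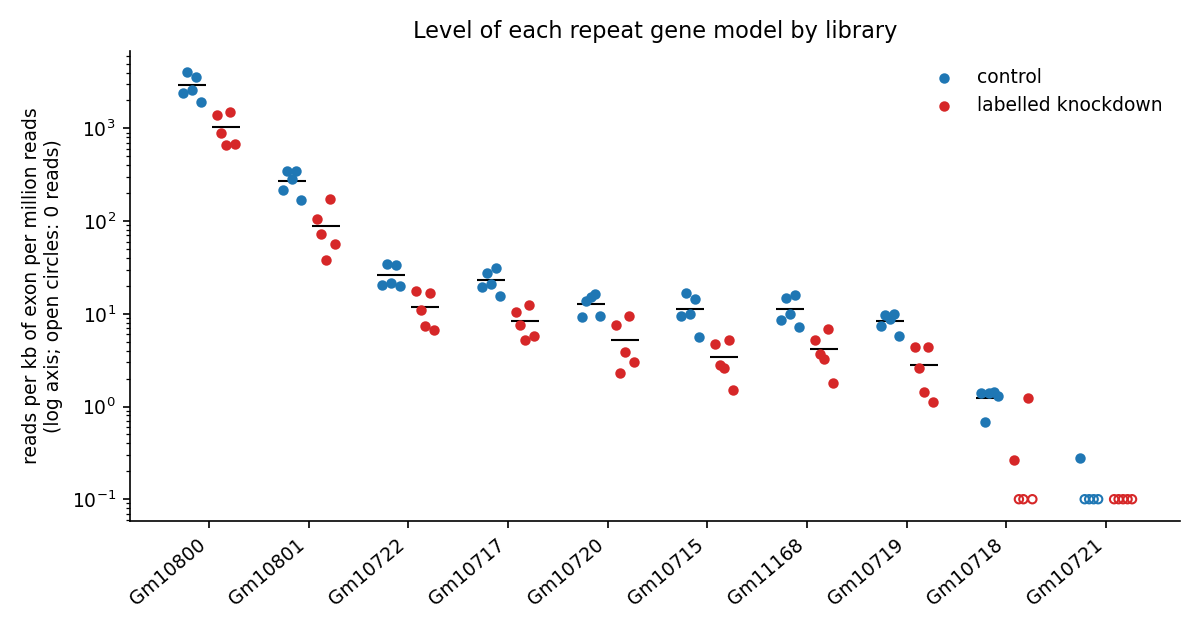
Level in RPKM (reads per kilobase of exon per 1000000 reads, log axis) of the 10 models in each library, control in blue and labelled knockdown in red, with filled points for libraries with reads, open circles for libraries with 0 reads and a bar at the mean where every library had reads. Gm10800 (2925 RPKM in controls on average) and Gm10801 (273 RPKM) stand above all chromosome 9 models, and red points sit lower than blue ones in most models.

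All 8 repeat models with enough reads to be tested were lower in the labelled knockdown libraries, by 1.93-fold for Gm10722 up to 2.91-fold for Gm10715, when counts were scaled by TMM, a method that sets most genes to no change. Gm10718 and Gm10721 did not pass the filter on low counts. The 8 calls stand against a background in which 31.3% of 19263 tested genes were called lower and 22.9% higher at an adjusted p under 0.05, or 54.3% in either direction. The median log2 fold change of the 8 models was -1.30, beside -0.10 for all tested genes. Among the 1353 tested genes for which the olfactory receptor density times exon length came to 70% or more of their reads, the median was -1.01, with 1048 called lower and 0 higher (edgeR). Those genes were picked by their own reads in these libraries, so their movement with the olfactory receptors, here and below, is partly built into the choice.

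Gm10800 fell by 1.32 on the log2 scale (SE 0.28, adjusted p = 0.00442, edgeR) and Gm10801 fell by 1.44 (SE 0.37, adjusted p = 0.0114). Of the chromosome 9 models Gm10715, with the lowest estimate, fell by 1.54 (SE 0.25, adjusted p = 5.88e-06), with Gm10719 next at -1.41 (SE 0.26, adjusted p = 0.000227). Gm10717 changed by -1.28 (SE 0.26), Gm11168 by -1.25 (SE 0.33) and Gm10720 by -1.13 (SE 0.26), with adjusted p of 0.00355, 0.0118 and 0.0003. Gm10722 had the smallest change, -0.95 (SE 0.22, adjusted p = 0.00145). Whether the models differed from each other in this change was not tested. In CPM of library totals, 6 of the 8 had every labelled knockdown library below every control library, which 19.5% of tested genes had too, and the exceptions were Gm10801 and Gm10720.

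With the reads predicted by the olfactory receptor density subtracted from each gene, all 8 models were again called lower (edgeR), from -1.10 for Gm10722 (adjusted p = 0.0103) to -1.73 for Gm10715 (adjusted p = 0.000203), with Gm10800 at -1.48 (adjusted p = 0.0144). That fit called 1760 of the 19263 tested genes lower and 1751 higher. The 8 models stood at 5.18 times that density or more in every library, so the subtraction took only a minor part of their reads. It could therefore hardly undo their calls, and background that is denser on repeats was not tested. With that density as a covariate none of the 8 was called (adjusted p 0.932 to 0.995, edgeR), in a fit that called 30 of all genes and whose covariate separates the groups without overlap, so that covariate and group can hardly be told apart. With the libraries of lane 8 alone, 2 in each group, Gm10715, Gm10719 and Gm10722 were called and the other 5 were not, at log2 fold changes of -0.92 to -1.28. Of the 19263 tested genes, the lane 8 fit called 283 lower and 130 higher.

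The models were then set against the olfactory receptor genes in the same library, so that a multiple of 1 means the same read density. Gm10800 had 4639, 4959, 4465, 5551 and 4574 times the olfactory receptor density in control libraries 1 to 5. In labelled knockdown libraries 1 to 5 it had 4409, 4041, 3551, 4362 and 3154 times. The highest of the latter was just below the lowest control, and such a separation downwards was seen in 34 of 19263 tested genes (0.177%). That share is low partly by the scale, which moves most genes upwards (median log2 fold change 0.94 over all tested genes relative to olfactory receptor reads). The means were 4837 ± 439 and 3904 ± 541 (SD, n = 5 each), a ratio of 1.24, compared with 2.85 in CPM. An exact two-sided permutation test on the log2 multiples gave p = 0.00794, the smallest that 5 against 5 libraries allow, as 1 of 8 such tests with no adjustment. The same exact permutation test gave p = 0.0397 for Gm10715, 0.0476 for Gm10717, 0.0635 for Gm10801 and for Gm10719, 0.357 for Gm11168, 0.437 for Gm10720 and 0.881 for Gm10722.

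Gm10801 had 412, 422, 496, 536 and 394 times the density in the controls and 336, 324, 200, 506 and 259 times in the labelled knockdown libraries. Replicate 4 of the latter group lay among the controls and the other 4 below them. Gm10717 stood at 33.9 to 47.5 times in the controls and 26.8 to 36.3 times in the others. Gm10722 stood at 36.6 to 51.7 and 30.9 to 56.1 times, with its highest value in a labelled knockdown library and the means close together (43.4 ± 6.13 and 44.8 ± 9.81, SD, n = 5 each). The groups overlapped for every model except Gm10800.

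The remaining multiples on chromosome 9 were smaller. In the controls Gm10720 stood at 16.9 to 26.2 times, Gm11168 at 16.6 to 24.3, Gm10715 at 13.4 to 22.4 and Gm10719 at 11.8 to 15.3. In the labelled knockdown libraries the same 4 stood at 10.4 to 27.3, 8.35 to 19.8, 6.91 to 15.3 and 5.18 to 13.96 times. Gm10718 stood at 2.65, 0.832, 2.43, 2.22 and 3.07 times in the controls and at 0.838, 0, 0, 3.63 and 0 times in the labelled knockdown libraries, on 5 reads or fewer in each. Gm10721 stood at 0.539 times in the library with its single read. The other 8 models lay above a multiple of 1 in all 10 libraries.

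**Figure D2:**
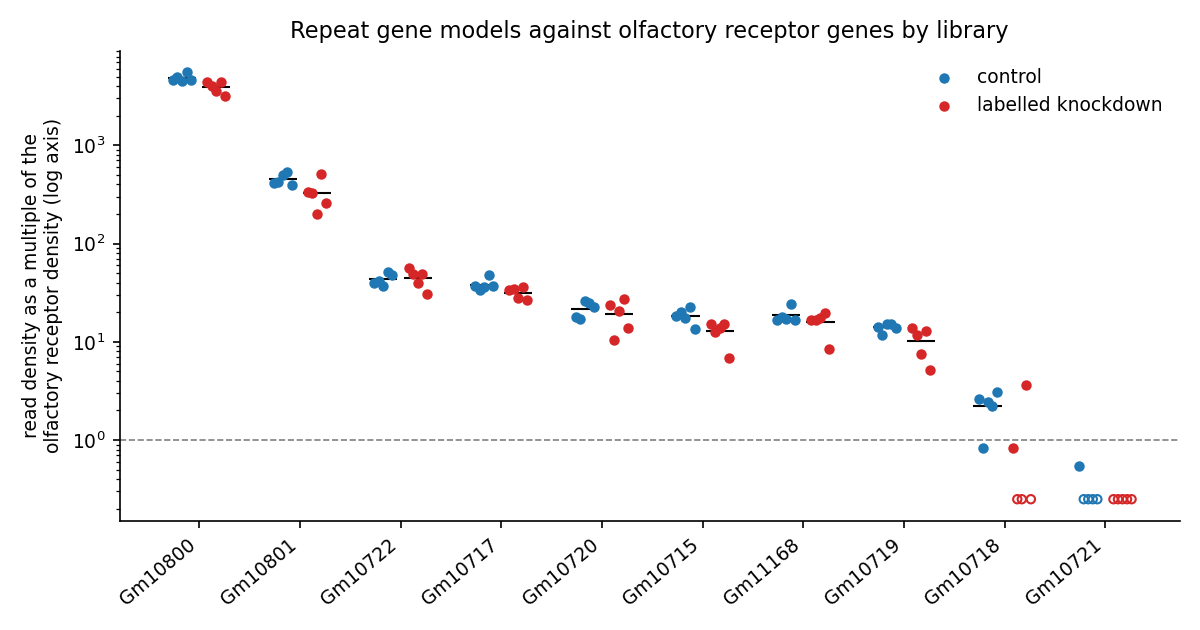
Read density of each model divided by the summed olfactory receptor density of the same library (log axis), control in blue and labelled knockdown in red, with open circles for 0 reads, bars at the mean where every library had reads and a dashed line at 1. Gm10800 lies between 3154 and 5551 times in all libraries, Gm10718 lies between 0 and 3.63 times, and Gm10721 lies under the line.

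With olfactory receptor reads in place of TMM as the scale of each library, none of the 8 tested models was called in either direction (edgeR), and 1 of them, Gm10715, had an unadjusted p under 0.05. In that fit 0.306% of all tested genes were called lower and 62.2% higher, 62.5% in either direction, and 12370 genes had an unadjusted p under 0.05. The scale moved the median log2 fold change of all genes from -0.10 to 0.94. The median of the repeat models was -0.29, beside 0.02 for the 1353 genes with 70% or more expected background. Of the 8 models, 7 had a negative estimate.

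Gm10715 was nearest to a call, at -0.51 (95% interval -0.98 to -0.04, adjusted p = 0.0522, edgeR), and it passed without control replicate 5 (-0.59, adjusted p = 0.0256), without labelled knockdown replicate 1 (-0.58, 0.0407) or without labelled knockdown replicate 4 (-0.59, 0.0337). Gm10801 was at -0.47 (-0.95 to 0.01, adjusted p = 0.0857), and without labelled knockdown replicate 4 at -0.69 (adjusted p = 0.00908). Gm10719 was at -0.42 (-0.88 to 0.03, adjusted p = 0.101) and passed without labelled knockdown replicate 1 (-0.56, 0.0417) or 4 (-0.52, 0.0482). Gm10800 was at -0.31 (-0.81 to 0.19, adjusted p = 0.311), although its own multiples did not overlap between the groups. The standard errors of this fit were alike, from 0.23 (Gm10722) to 0.26 (Gm10800), although the models differ widely in reads. edgeR sets the spread of a gene partly from other genes, so its p-values do not measure a model's own spread alone. The intervals of Gm10717 (-0.27), Gm11168 (-0.23), Gm10720 (-0.14) and Gm10722 (0.06) all spanned 0, with adjusted p of 0.363 to 0.858. None of these intervals shows that a model kept its level relative to the olfactory receptors, since those of 6 models reach below -0.69.

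**Figure D3:**
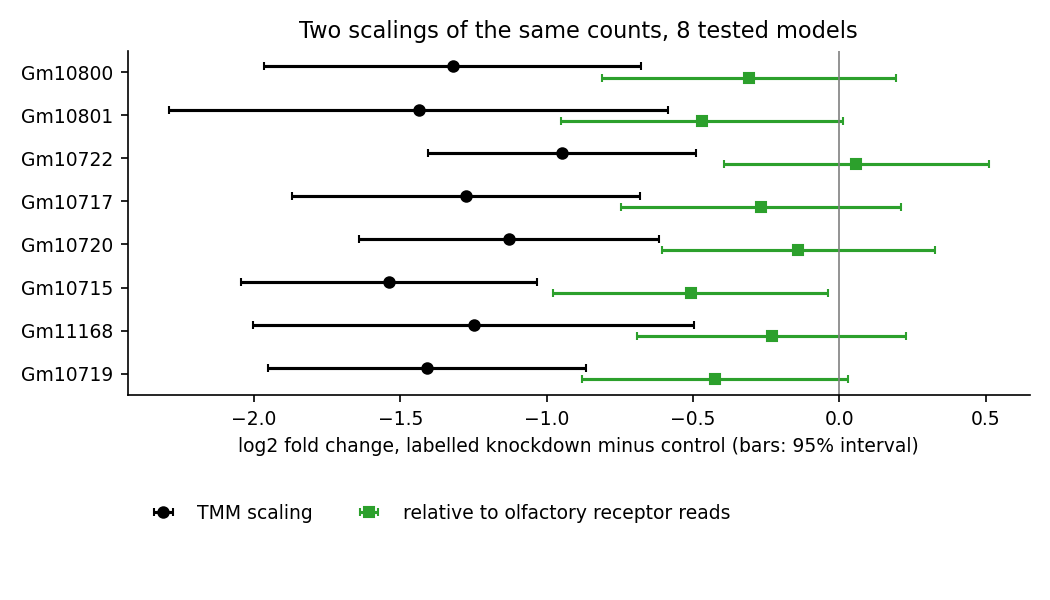
Log2 fold change, labelled knockdown minus control, of the 8 tested models under TMM scaling (black circles) and relative to olfactory receptor reads (green squares), with 95% intervals as bars. All TMM intervals lie below 0, and all olfactory intervals reach 0 except that of Gm10715, which ends at -0.04.

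Replicates 1 to 3 of both groups came from lane 7 and replicates 4 and 5 from lane 8. In both lanes the mean multiple was higher in the controls for 7 of the 8 tested models, and Gm10722 differed between the lanes. Gm10800 averaged 4688 times the olfactory receptor density in control and 4000 times in labelled knockdown libraries of lane 7, and 5062 and 3758 times in lane 8. Gm10717 averaged 35.7 and 31.8 times in lane 7 and 42.04 and 31.5 times in lane 8. Gm10722 was higher in the labelled knockdown group in lane 7 (39.2 and 48.2 times) and lower in lane 8 (49.6 and 39.7 times).

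The shares of Gm10800 and Gm10717 in the reads of the family differed between the groups by less than 1 SD. Gm10800 took 86.5% ± 0.953 of the reads of the 10 models in the controls and 87.0% ± 1.42 in the labelled knockdown libraries (SD, n = 5 each). Gm10717 took 3.99% ± 0.291 and 4.13% ± 0.199. Gm10722 took 0.765% ± 0.0782 and 0.977% ± 0.0979, from 0.690% to 0.890% in the controls and from 0.846% to 1.10% in the others, which overlap. No test was made of these shares.

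Gm10801 made up 6.35%, 6.10%, 7.81%, 6.87% and 6.17% of the reads of Gm10800 and Gm10801 together in control libraries 1 to 5. In the labelled knockdown libraries it made up 5.51%, 5.78%, 4.13%, 8.13% and 5.91%. The lowest share, in labelled knockdown replicate 3, had an exact 95% binomial interval of 3.45% to 4.90%, and the highest, in replicate 4 of the same group, one of 7.47% to 8.83%. The labelled knockdown group thus held both extremes, and the controls lay between them. The intervals cover counting error only.

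**Figure D4:**
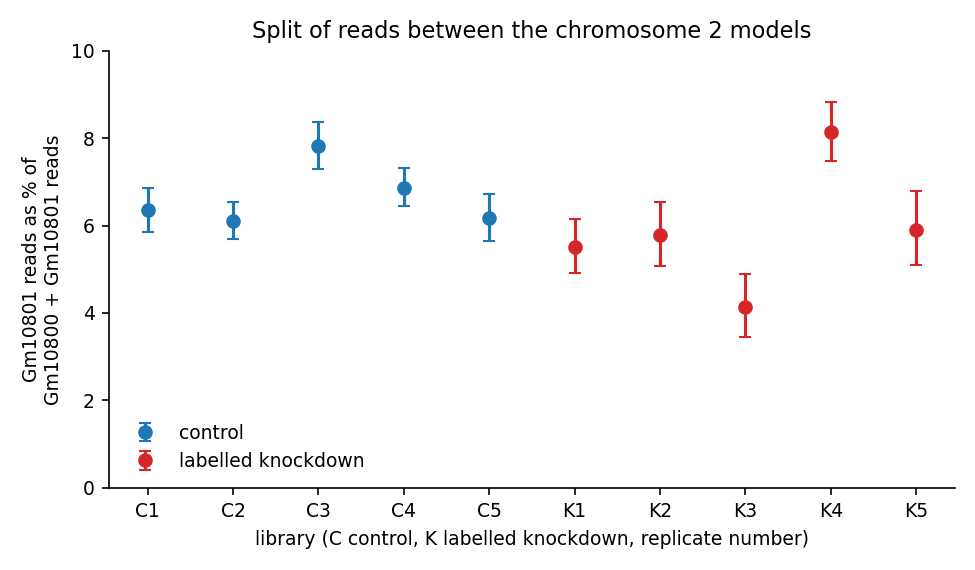
Gm10801 reads as a percent of the reads of Gm10800 and Gm10801 together in each of 5 control (C, blue) and 5 labelled knockdown (K, red) libraries, with exact 95% binomial intervals as bars. Labelled knockdown replicates 3 (4.13%) and 4 (8.13%) are the lowest and the highest.

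The models also differed in how much of their sequence is their own. Of all 50-base windows in its transcripts, Gm10801 had 82.9% in no other annotated gene and Gm10800 72.6%. On chromosome 9 the share was 53.6% for Gm10717, 46.4% for Gm11168, 37.0% for Gm10722, 36.0% for Gm10715, 31.6% for Gm10719, 25.1% for Gm10718, 15.7% for Gm10721 and 11.7% for Gm10720. The chromosome 2 models were thus highest both in distinct sequence and in reads per length, but the order did not hold throughout. Gm10720, with the least distinct sequence, had 12.8 RPKM in the controls, above the 1.25 RPKM of Gm10718 and the 0.0563 RPKM of Gm10721. Part of the chromosome 9 exons also overlaps Gm26870, a noncoding gene on the opposite strand (chr9:3000282-3038313). It had no entry among the genes counted, so its reads could not be examined. That overlap covered 41.1% of the exonic bases of Gm10721, 32.0% of Gm10715, 22.8% of Gm10718, 12.4% of Gm11168 and 12.1% of Gm10719, and none of the others. No source used here gives the strand setting of the counting, and reads from the 2 strands cannot be told apart.

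**Figure D5:**
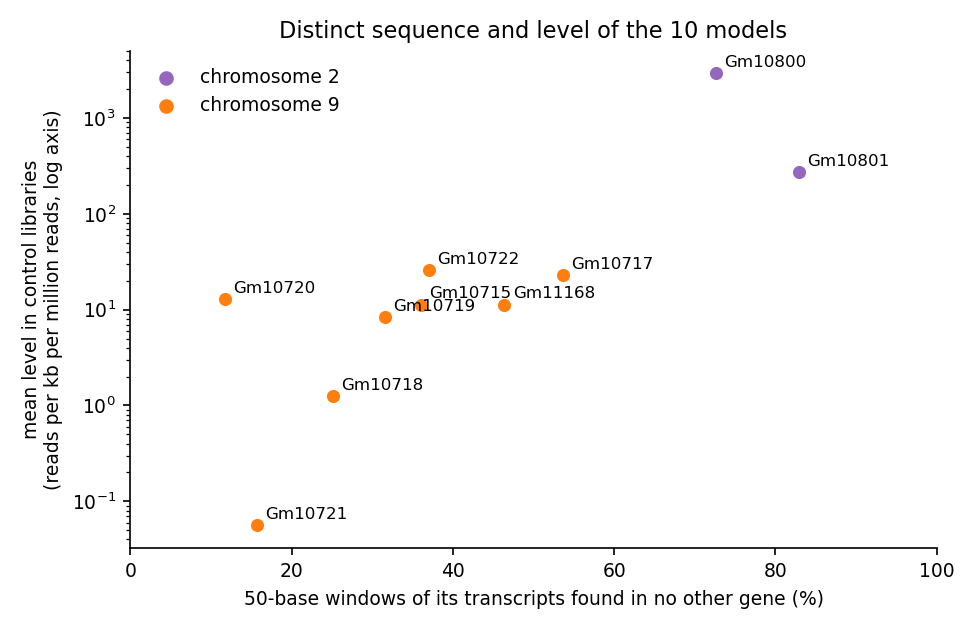
Mean level in the control libraries (RPKM, log axis) against the percent of 50-base windows of a model's transcripts found in no other annotated gene, with chromosome 2 models in purple and chromosome 9 models in orange. Gm10801 (82.9%) and Gm10800 (72.6%) lie at the upper right, and Gm10720 (11.7%) lies at the left with a level like that of models with more distinct sequence.

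Outside the 10 models, 25-base words of the family occurred in the transcripts of Gm26870, Gm17535 and Gm21738 and of no other annotated gene. Gm21738 lies on chromosome 14 (chr14:19415857-19418930, minus strand) and lacks the 33-base run. Its longest exon is printed because its reads followed those of the family more closely than any other gene, with capitals for the 67 bases that it shares unbroken with Gm10800.
Gm21738, chr14:19417133-19417366, minus strand: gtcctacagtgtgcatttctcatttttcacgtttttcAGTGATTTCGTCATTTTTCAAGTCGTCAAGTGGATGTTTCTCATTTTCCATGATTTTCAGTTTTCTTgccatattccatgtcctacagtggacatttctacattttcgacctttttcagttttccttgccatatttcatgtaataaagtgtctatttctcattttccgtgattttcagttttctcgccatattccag
Gm21738 had 208, 310, 252, 354 and 204 reads in the controls and 140, 106, 68, 183 and 69 in the labelled knockdown libraries, with no overlap in CPM. Over the 10 libraries its log2 CPM had a Pearson r of 0.994 with the mean of the 8 tested models, the highest of 19255 genes, and it fell by 1.32 on the log2 scale, from 50.1 to 20.1 CPM. Relative to the olfactory receptors it stood at 110 to 158 times in the controls and 72.7 to 133 times in the others.

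Such likeness was common. The next genes in order of r were Ptprd (0.992), a receptor phosphatase of neurons, Unc13b (0.990), a factor that primes synaptic vesicles, the pseudogene Gm20788 on chromosome Y (0.989) and Dlgap1 (0.988), a scaffold of the postsynaptic density. In all, 1190 genes had an r above 0.9. Every one of these values carries the difference between the groups and the library depth, so they are a description only. The reads that the olfactory receptor density predicts came to 116% of those counted on Ptprd, 57.2% on Dlgap1, 35.0% on Unc13b, 6.13% on Gm20788 and 0.822% on Gm21738.

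The other counted genes around the repeats held few reads. Within 100 kb of a model lie 5 other annotated genes that are among the genes counted, none of which had enough reads to be tested. Gm17535, a further repeat copy between Gm10717 and Gm10715, had 2 to 10 reads in the controls and 1 to 10 in the labelled knockdown libraries. The noncoding transcript 4930433N12Rik, on the far side of the cluster, had 6 to 26 and 1 to 9 reads.

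A list of 43 genes tied to pericentromeric heterochromatin was examined, all of which were tested. It held writers and readers of its marks, DNA methylation and other chromatin factors, and factors known at satellite repeats. With TMM scaling 22 of the 43 were called higher and 1 lower (edgeR), beside 22.9% and 31.3% of all 19263 tested genes. Upper-quartile scaling gave 7 higher and 4 lower, beside 1685 and 7195 of all tested genes. Scaling by library totals gave 3 and 6, beside 759 and 7888. Whether the list differs from other genes of like level was not tested. The median log2 fold change of the list was 0.18 with TMM, 0.03 with upper quartiles and -0.03 with totals, while that of all genes moved from -0.10 to -0.24 and -0.30. The 5 with the smallest p among those higher under TMM were Atrx, a chromatin remodeller (0.34, SE 0.06, 305 to 387 CPM), the DNA methyltransferases Dnmt3a (0.33, SE 0.06, 458 to 574 CPM) and Dnmt1 (0.27, SE 0.06, 215 to 259 CPM), Cenpb, which binds centromeric DNA (0.34, SE 0.06, 179 to 227 CPM), and Cbx1, an HP1 protein (0.35, SE 0.07, 59.5 to 75.7 CPM). Their adjusted p-values ran from 8.24e-06 to 0.000129 by edgeR. Suv39h1, a histone methyltransferase of these regions, was named after its values were seen and did not pass (0.23, SE 0.12, adjusted p = 0.0871, edgeR).

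Zfp57, a zinc finger protein of imprinted regions, was the list gene called lower, from 4.09 to 1.94 CPM (log2 fold change -1.07, SE 0.30, adjusted p = 0.00245, edgeR). The reads predicted from the olfactory receptor density came to 52.8% of those counted on it, and relative to the olfactory receptors its change was -0.06 (adjusted p = 0.896). On that second scale 42 of the 43 were called higher, beside 62.2% of all tested genes.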

How the data were processed

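The authors deposited, for each library, a file of read counts per gene, as whole numbers with no normalization visible in the values. The submitters' processing notes name bcl2fastq and the build GRCm38 (mm10). Not given in the sources used here are the aligner, the counter, its strand setting and annotation and its treatment of multiply matching reads. RNA was cleaned with a Zymo column kit and libraries were made with the Pico Input version of Takara's stranded SMARTer kit for total RNA, per the labels' protocols. Of the 55563 entries of a file, 92 were ERCC spike-ins (0 to 2 reads) and were left out, leaving 55471 genes. GENCODE M21 gave symbols, exon lengths and transcripts for 55230 genes, and the 241 unmatched held 0.0107% of reads. Lanes were read from the deposited files' names.

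The main test was the robust quasi-likelihood test of edgeR 4.0.16 (R 4.3.3) after filterByExpr and TMM, with no term but group, adjusted by Benjamini-Hochberg over 19263 genes at 0.05. A second fit of the same genes used each library's summed olfactory receptor reads as its scale. Standard errors are the log2 fold change divided by the root of its F statistic, and intervals are 95%. Density is reads per kilobase of merged exons, and the share of expected background is the olfactory receptor density times exon length over the gene's reads. On simulated counts (19705 genes), the TMM fit found 25.5% of genes changed 1.5-fold and 78% of those changed 2-fold, the olfactory fit 24.5% and 76.9%, and each called 6 of 19516 unchanged genes. The simulation gave every gene the same dispersion, changed few genes and held olfactory receptor shares equal between the groups. The deposited counts differ in each of these, so the rates need not carry over to them. Alternatives were DESeq2 1.42.0, limma-voom (limma 3.58.1), other scalings, filters and denominators, lane, replicate block and leaving out each library. Limma-voom relative to olfactory reads was added after seeing the data. Libraries of a group differed by more than counting noise, with a chi-square of 1.76 to 4.48 per degree of freedom. Named genes were the 10 models, the target, neighbours within 100 kb with at least 10 reads in a library, the 5 list genes with the smallest p in each direction and the 5 genes most correlated with the models. Markers examined were those of microglia, astrocytes, the oligodendrocyte lineage, neurons, endothelium and fibroblasts and mural cells. The models, lists and rules were chosen with earlier results of these data known.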

Additional observations from a re-analysis of the deposited data

Results flagged for a closer look

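In 12 of 57 groups of 5 libraries examined, over each model's CPM, read density relative to the olfactory receptors and share of the models' reads, an extreme library lay further from its neighbour than Dixon's 95% limit (a gap of 0.71 of the range) allows. Chance flags about 1 in 20 groups, and the groups are not independent of each other. For Gm11168 control replicate 4 was far above the other controls both in its multiple of the olfactory receptor density (24.3, with the others at 16.6 to 18.0) and in its share of the models' reads (1.08%, with the others at 0.889% to 0.940%). Labelled knockdown replicate 5 was far below its group for Gm11168, at 8.35 times, with the others at 16.5 to 19.8. Control replicate 4 was also far above the other controls for Gm10717, at 47.5 times, with the others at 33.9 to 36.8. For Gm10715 control replicate 5 had the lowest share of the models' reads, 0.361%, with the other controls at 0.470% to 0.509%. The other 7 come from the models with 0 to 5 reads per library. Gm10718 was lowest in control replicate 2 at 0.463 CPM, with the other controls at 0.887 to 0.989 CPM. In the labelled knockdown group it was highest in replicate 4, at 0.848 CPM, 3.63 times the olfactory receptor density and 0.0726% of the models' reads, which is 5 reads beside 0 or 1 in the others. Gm10721 had its single read in control replicate 1, at 0.188 CPM, 0.539 times and 0.0102%.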

How the results depend on the processing

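The 8 tested models kept their negative sign and call with DESeq2 (its own size factors and test), with upper-quartile scaling or library totals in edgeR, and without each library in turn (8 of 8 called each time). Of 184 values of single models under alternatives to the TMM fit, 171 kept direction and side of the threshold, 7 lost the call (5 with lane 8 alone, 2 with the density covariate) and 6 changed sign. All 6 sign changes came with the density covariate, at 0.089 (Gm10800), 0.29 (Gm10801), 0.22 (Gm10715), 0.21 (Gm10720), 0.34 (Gm10722) and 0.23 (Gm11168). Models called lower dropped from 8 to 3 with lane 8 alone, which has fewer samples, and to 0 with the covariate. Over all genes, 6033 lower and 4418 higher calls became 7195 and 1685 under upper-quartile scaling, 7888 and 759 under scaling by totals and 5055 and 4997 with DESeq2. They became 2239 and 2057 with a filter of 5 CPM in 5 libraries, which tests fewer genes, 283 and 130 with lane 8 alone, 28 and 2 with the covariate, and 1760 and 1751 with background reads subtracted. Without 1 library they ran from 4865 to 6345 and from 3809 to 4770. In the list of heterochromatin genes, 22 higher and 1 lower became 7 and 4 under upper-quartile scaling and 3 and 6 under scaling by totals, and without 1 library they ran from 18 to 23 and stayed at 1.

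Relative to the olfactory receptors, 59 genes lower became 31 with vomeronasal receptor reads, 34 without the densest 5% of olfactory receptors, 1 with lane 8 alone and 95 with limma-voom (added after seeing the data), and from 50 to 96 without 1 library, with 90 and 96 without labelled knockdown replicates 1 and 4. The 11979 higher became 0 with lane 8 alone and 11544 to 12167 without 1 library. The 0 models lower became 1 with olfactory receptors outside chromosomes 2 and 9 (Gm10715, -0.54, adjusted p = 0.0353 by edgeR), 1 with limma-voom (Gm10801, -0.53, adjusted p = 0.0454), and 0 to 3 without 1 library. Of 144 values of single models, 132 kept direction and side, 9 gained a call and 3 changed sign. Those 3 were Gm10722 at -0.31 with lane 8 alone and at -0.038 without labelled knockdown replicate 1, and Gm10720 at 0.0081 without labelled knockdown replicate 2. Without 1 library Gm10722 ran from -0.038 to 0.16 and Gm10720 from -0.32 to 0.0081. Where no construction is named, the cause was not tested. Depth limited Gm10718 (28 reads in all) and Gm10721 (1 read). With no filter on low counts their log2 fold changes were -1.73 (adjusted p = 0.0627, edgeR) and -1.37 (adjusted p = 0.399).

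No pairing of the libraries by replicate number was seen, which does not exclude one. Deviations from the group means correlated at -0.098, -0.213, 0.013, 0.152 and 0.160 for replicates 1 to 5, and 2 of 10 libraries correlated best with their own number. With the replicate block, calls over all genes were 5949 lower and 4405 higher, with 8 models lower. Relative to the olfactory receptors they were 55 and 11917, with 1 model lower (Gm10715, -0.52, adjusted p = 0.0489, edgeR).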

Other observations

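A second class of genes that microglia keep silent, 333 vomeronasal receptor genes, held 1319 to 4218 reads per library. Their density was 0.385 ± 0.101 RPKM in control and 0.154 ± 0.0444 RPKM in labelled knockdown libraries (SD, n = 5 each), a ratio of 2.51, with p = 0.00794 by the exact permutation test. This ratio lay between that of the olfactory receptors (2.33) and that of Gm10800 in CPM (2.85). The classes differed in level, with the olfactory receptors at 0.599 RPKM in control and 0.257 RPKM in labelled knockdown libraries. Multiples and shares of expected background thus depend on the class used as the measure.

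Gm17535, the repeat copy between Gm10717 and Gm10715, had few reads, at 8, 2, 4, 4 and 10 reads in the controls and 10, 2, 7, 8 and 1 in the labelled knockdown libraries. Its multiple of the olfactory receptor density was 3.02 ± 2.19 in the controls and 5.17 ± 3.47 in the others (SD, n = 5 each), which overlap (exact two-sided permutation test on log2 multiples, p = 0.357). It was chosen after its values were seen.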
